A study of Mus musculus with 8 samples.

Results

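Hox genes encode homeodomain transcription factors that give cells of the trunk and limbs their position along the body axis. They lie in 4 clusters, Hoxa, Hoxb, Hoxc and Hoxd, on chromosomes 6, 11, 15 and 2, and each gene is numbered by its paralog group, from 13 at the 5′ end of a cluster to 1 at its 3′ end. The members described here are all probes that the platform annotation assigned to exactly 1 gene named Hoxa, Hoxb, Hoxc or Hoxd with a number. There were 38 such probes among 31769, and they covered 36 of the 39 genes that the RefSeq table lists for the clusters, among 14510 genes that a probe names alone. Hoxb4 and Hoxd3 had a pair of probes each. By cluster there were 10 Hoxa, 11 Hoxb, 7 Hoxc and 10 Hoxd probes.

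In the study, C2C12 cells, an established myoblast line from C3H mouse muscle that forms multinucleate myotubes when serum is lowered, had been stably selected with 1 of 2 retroviruses. The 4 HDAC4 samples carried a virus encoding HDAC4 together with Neo, and the 4 Neo control samples carried a virus encoding Neo alone. HDAC4 is a class IIa histone deacetylase, and the question was how its expression changes transcription in differentiated muscle cells. All samples were taken after 4 days in 2% horse serum, begun at 90% confluence, and none came from parental cells without a virus. RNA of the cells (Cy5) was hybridised against a common murine reference RNA (Cy3) on 2-colour oligonucleotide arrays. The labels say neither whether the selected cells were pools or clones nor whether replicates are separate cultures, so every p-value reflects a spread that may be technical.

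In the embryo, Hox genes are switched on in the order in which they lie, with low-numbered genes active towards the head and high-numbered genes towards the tail and the ends of the limbs. Polycomb proteins hold the clusters silent where they are not used, and trithorax proteins keep them active where they are. Adult cells, muscle-derived lines among them, keep part of the Hox pattern of the body region from which they came, and C2C12 cells came from the thigh.

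Every value below is a log2 ratio of cells over reference, centred on the median of its array, so 0 stands for the median probe of that array, and values over or under 0 are called above or below the reference. The direction of the ratio is likely rather than stated, and was read from muscle genes: 10 probes of genes such as the creatine kinase gene Ckm and the troponin gene Tnnt3 had a median between 8.39 and 8.79 on the HDAC4 arrays and between 8.84 and 9.07 on the Neo arrays. Of 13 probes for 8 liver genes, 8 had no value on any array. A Hox value is relative to the same gene in the reference, whose source the labels give once as murine reference RNA and once as liver. It does not rank transcripts of different genes, and in bulk RNA fewer cells expressing a gene and less RNA per cell cannot be told apart. The HDAC4 and Neo arrays numbered 1 stand apart from the rest. Across 14746 probes their ratios correlated with each other at 0.945, and each with the other group's arrays of another number at 0.893 to 0.908. Between the groups, arrays 2 to 4 correlated at 0.9355 to 0.9565. Hox changes that rest on the arrays numbered 1 are given with and without them, and changes of other genes with all arrays only. The labels could not be checked against HDAC4 itself, since the annotation names no probe for its gene.

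The RefSeq table (GRCm38.p6) held 24 promoter windows, each 250 bases before to 50 bases after a start site, for 22 of the 36 genes with a probe. In median they held 14.5 CpG dinucleotides, against 7 over all 32851 windows of the table. The 4 windows of genes with no value on any array (Hoxb1, Hoxd3, Hoxd10 and Hoxd13) had 10 to 37 CpG, and the 10 windows of genes with a value on all 8 arrays had 4 to 29 CpG, so the ranges overlapped. Windows of 4 genes are shown on the gene's strand, 5′ to 3′, with every CpG in capitals. Hoxa9 and Hoxa11 lay above the reference on all arrays, Hoxb8 was the least stable member across arrays, and Hoxd13 had no value on any array. They lie at chr6:52227321-52227620 (minus strand, 4 CpG), chr6:52245761-52246060 (minus strand, 15 CpG), chr11:96281655-96281954 (plus strand, 13 CpG) and chr2:74667975-74668274 (plus strand, 37 CpG).
Hoxa9: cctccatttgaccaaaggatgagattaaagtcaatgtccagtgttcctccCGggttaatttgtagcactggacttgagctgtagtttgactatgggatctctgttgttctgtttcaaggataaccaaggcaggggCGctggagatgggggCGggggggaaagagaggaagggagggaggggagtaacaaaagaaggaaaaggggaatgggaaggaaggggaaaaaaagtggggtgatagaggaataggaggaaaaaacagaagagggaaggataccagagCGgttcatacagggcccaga
Hoxa11: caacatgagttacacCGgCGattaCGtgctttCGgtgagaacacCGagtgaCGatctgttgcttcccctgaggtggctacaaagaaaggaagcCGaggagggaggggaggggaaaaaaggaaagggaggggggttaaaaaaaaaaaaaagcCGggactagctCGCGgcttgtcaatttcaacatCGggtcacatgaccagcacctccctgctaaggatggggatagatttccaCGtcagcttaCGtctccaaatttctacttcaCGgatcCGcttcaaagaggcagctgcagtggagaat
Hoxb8: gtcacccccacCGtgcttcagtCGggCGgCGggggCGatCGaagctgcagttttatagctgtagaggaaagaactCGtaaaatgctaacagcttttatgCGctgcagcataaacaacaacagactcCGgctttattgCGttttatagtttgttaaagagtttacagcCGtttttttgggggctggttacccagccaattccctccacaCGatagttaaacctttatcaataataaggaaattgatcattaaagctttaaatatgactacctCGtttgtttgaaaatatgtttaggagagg
Hoxd13: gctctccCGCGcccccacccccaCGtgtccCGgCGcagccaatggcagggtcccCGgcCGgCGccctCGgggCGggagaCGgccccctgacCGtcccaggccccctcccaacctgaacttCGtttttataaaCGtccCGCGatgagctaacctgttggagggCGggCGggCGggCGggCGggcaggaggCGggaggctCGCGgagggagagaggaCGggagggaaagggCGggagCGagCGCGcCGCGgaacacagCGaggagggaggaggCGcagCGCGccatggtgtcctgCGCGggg

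Among these 4 windows the Hoxa9 window, of a gene with a value on every array, holds the fewest CpG, and the Hoxd13 window, of a gene with a value on none, holds the most. These 4 do not stand for all 24 Hox windows. There the median CpG count was 14.5 for genes with 8 values, 11 for 1 to 7 and 21 for none. The ranges overlapped, with Hoxa5 (8 values) at 29 and Hoxb1 (none) at 10. On either strand, the letters TATAAA occurred in 4 of the 24 Hox windows (16.7%) and in 13.6% of all windows, and CCAAT in 15 of 24 (62.5%) and in 37.4% of all windows. The binding element of MEF2, the muscle transcription factor family that HDAC4 binds, was found in 0 of the 24 Hox windows and in 0.557% of all windows. These are matches of letters in short windows, not binding sites.

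**Figure D1:**
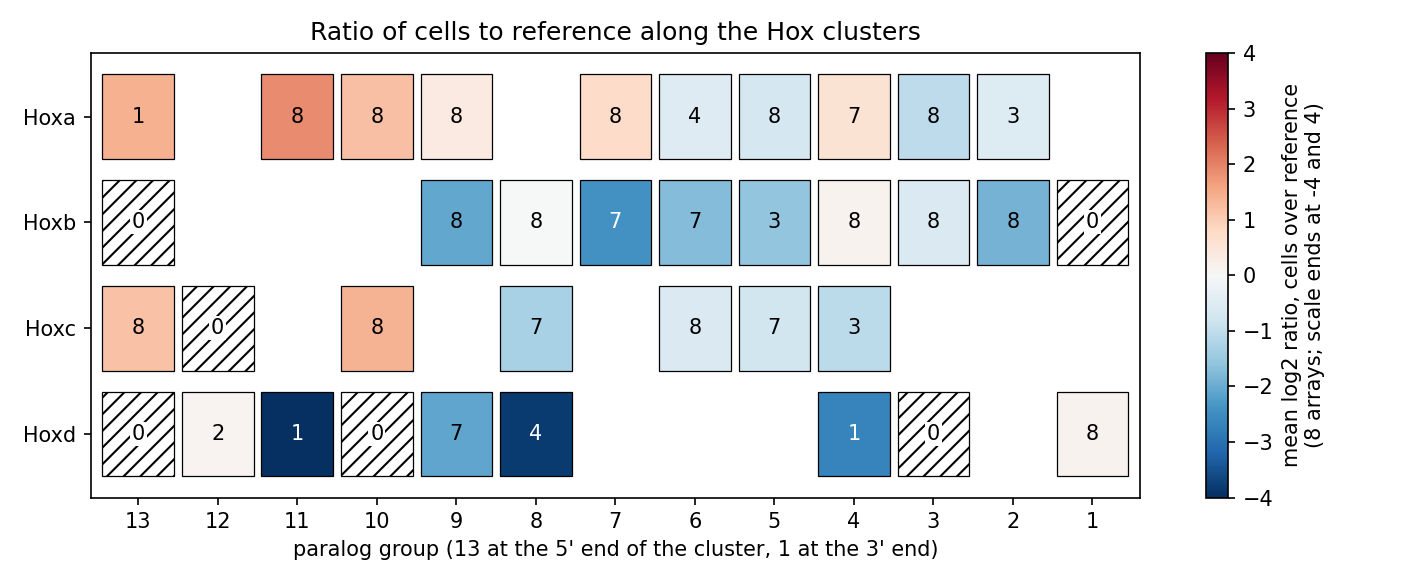
Each square is a Hox gene with a probe, placed by cluster and paralog group, and its colour is the mean log2 ratio of cells over reference over the arrays with a value. The number in a square counts the arrays with a value out of 8, hatching marks genes without any value, and for Hoxb4 the probe with more values is shown. Hoxa11 at 1.89 and Hoxc10 at 1.39 lie above the reference, and Hoxb9 at -2.07 and Hoxd9 at -2.10 below it.

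Of the 38 probes, 15 (39.5%) had a value on all 8 arrays, 16 on 1 to 7 arrays and 7 (18.4%) on none, against 46.4% with 8 values and 22.3% with none over all probes. The labels do not say why values are missing. Values were unevenly spread over the clusters: 78.75% of the possible values were present for Hoxa, 67.0% for Hoxb, 73.2% for Hoxc and 28.75% for Hoxd. All 10 Hoxa probes had at least 1 value. The 7 probes with none were those of Hoxb1, a hindbrain gene, of Hoxb13 and Hoxc12, of Hoxd10 and Hoxd13, of which Hoxd13 patterns digits, and both probes of Hoxd3. At least 3 values in each group were present for 21 probes, 7 each in Hoxa and Hoxb, 5 in Hoxc and 2 in Hoxd, and these were tested.

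In 7 of the 21 probes every value lay above 0, and all 7 belonged to Hoxa (Hoxa4, Hoxa7, Hoxa9, Hoxa10, Hoxa11) or Hoxc (Hoxc10, Hoxc13). In 10 every value lay below 0, and they were Hoxa3, Hoxa5, Hoxb2, Hoxb3, Hoxb6, Hoxb7, Hoxb9, Hoxc5, Hoxc8 and Hoxd9. The other 4, Hoxb4, Hoxb8, Hoxc6 and Hoxd1, had values on both sides. Of the 186 Hox values, 6 lay where the reference appears to have been set to a floor, so they may not be measured ratios: Hoxa4 on HDAC4 arrays 2 and 4, Hoxd1, Hoxc4 and Hoxd12 on Neo array 1, and Hoxa13 on Neo array 3. Without them Hoxa4 had 1 HDAC4 value and could not be tested. Within paralog group 9, the Hoxa9 probe was above the reference and the Hoxb9 and Hoxd9 probes were below it.

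No Hox probe passed the test between HDAC4 and Neo cells. In limma, fitted over 16748 probes with Benjamini-Hochberg adjustment, 0 of the 21 Hox probes had an adjusted p under 0.05, where 0.125% of all tested probes did (21 probes, 1 higher and 20 lower in HDAC4). With the replicate number as a block the count over all probes was 9 (0.0537%), and with replicate 1 as a batch 108 (0.645%), and 0 Hox probes were called in either fit. At an unadjusted p under 0.05 there was 1 Hox probe, that of Hoxb9, where 7.03% of all tested probes passed. The change, HDAC4 minus Neo, was above 0 in 10 Hox probes and below 0 in 11, with a median of -0.065. Over all tested probes the median was -0.0036, and 50.6% had a change below 0. The 95% confidence interval of the change lay between -1 and 1 on the log2 scale for 17 of the 21 probes (80.95%), against 86.96% of all tested probes. The exceptions were Hoxb4, Hoxb6, Hoxb8 and Hoxb9. The groups did not overlap in 2 of the 21 probes, Hoxa5 and Hoxb9, both lower in HDAC4, where 5.25% of all tested probes had non-overlapping groups in either direction and 3.18% with HDAC4 the lower.

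**Figure D2:**
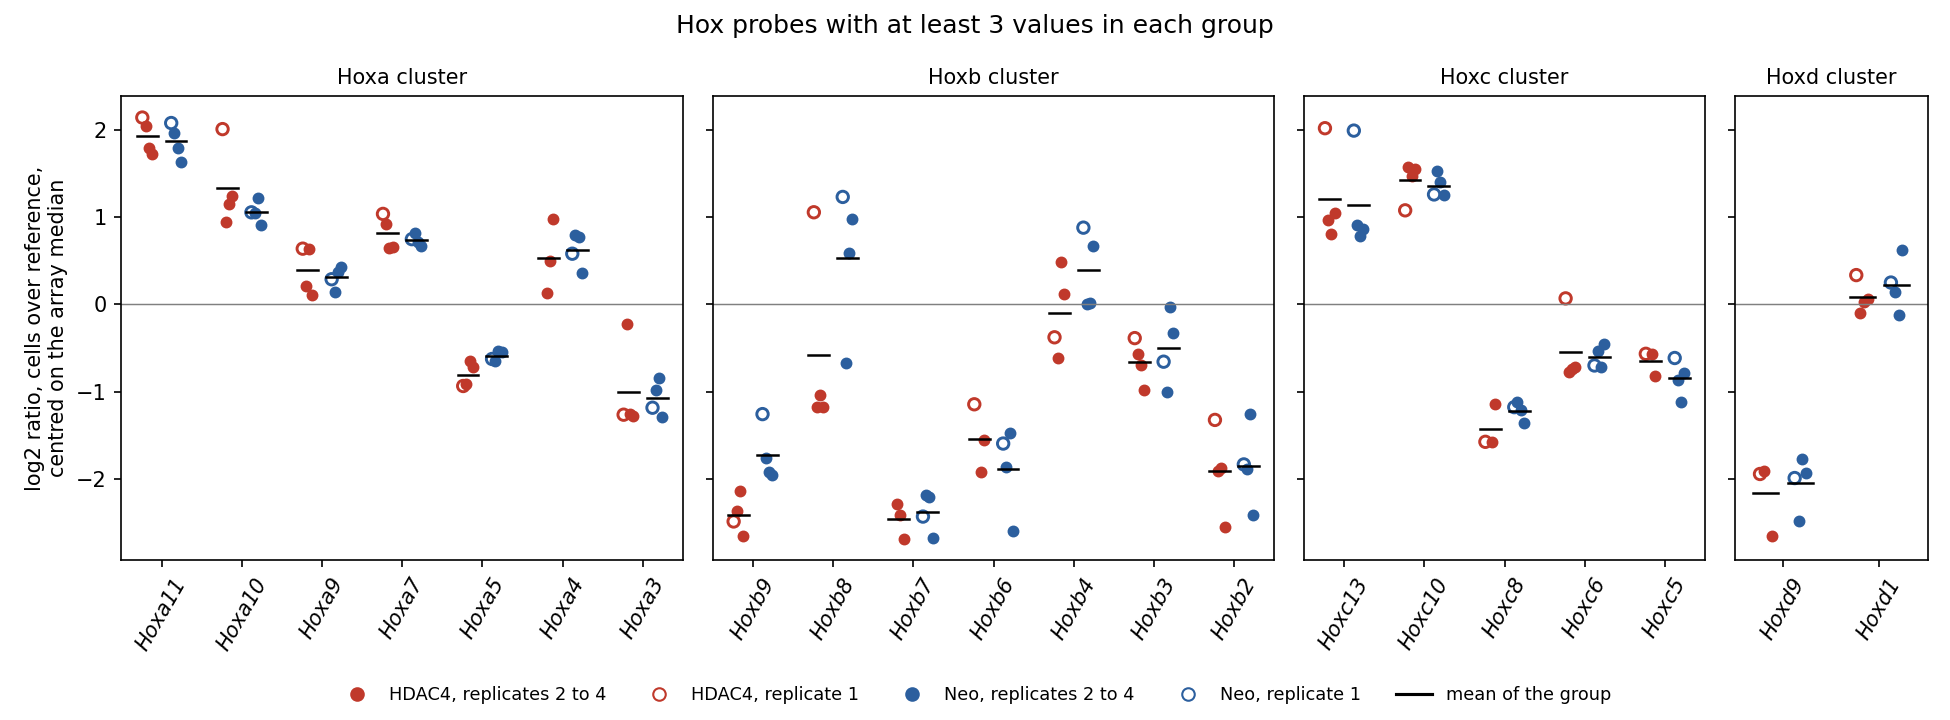
Centred log2 ratios of cells over reference for the 21 tested probes, by cluster and from high to low paralog group, with 4 HDAC4 arrays (red, left) and 4 Neo arrays (blue, right) per gene. Open circles are the arrays numbered 1 and black lines the group means; both open circles of Hoxc13 lie near 2, apart from the other 6 arrays, and the 4 HDAC4 values of Hoxb9 lie below the 4 Neo values.

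Towards its 5′ end, Hoxa was above the reference in both groups. Hoxa11, which patterns the forearm and lower leg, stood at 2.14, 2.04, 1.79 and 1.72 on HDAC4 arrays 1 to 4 and at 2.08, 1.96, 1.79 and 1.63 on Neo arrays 1 to 4. Over the 8 arrays this is a ratio of 3.72 to the reference. The groups overlapped, and the change was 0.058 ± 0.154 (SE; 95% interval -0.29 to 0.40; limma adjusted p = 0.9695).

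Hoxa10, needed for lumbar vertebrae and the thigh, had 2.01, 0.94, 1.15 and 1.24 in HDAC4 and 1.05, 1.04, 1.21 and 0.91 in Neo. HDAC4 replicate 1 was high and the other 7 arrays lay together, so the change of 0.28 ± 0.22 (SE; limma adjusted p = 0.889) was 0.053 without both arrays numbered 1. Hoxa9, which acts in the trunk and in blood progenitors, had 0.64, 0.20, 0.63 and 0.11 in HDAC4 and 0.29, 0.14, 0.38 and 0.43 in Neo. The HDAC4 values spread more widely (SD 0.28, n = 4) than the Neo values (SD 0.13, n = 4) and enclosed them at both ends, with a change of 0.087 (limma adjusted p = 0.960). Hoxa7, a trunk gene, gave 1.04, 0.92, 0.65 and 0.65 in HDAC4 and 0.75, 0.82, 0.72 and 0.67 in Neo. The means were 0.81 ± 0.19 in HDAC4 and 0.74 ± 0.06 in Neo (SD, n = 4 each), and the interval of the change ran from -0.23 to 0.38.

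Towards its 3′ end, Hoxa lay on both sides of the reference. Hoxa5, a gene of neck and upper thorax that is also needed in the lung, had -0.94, -0.92, -0.66 and -0.72 in HDAC4 and -0.63, -0.65, -0.54 and -0.55 in Neo. All 4 HDAC4 values lay below all 4 Neo values, so the HDAC4 array was the lower one under any pairing of the arrays. The margin was narrow, with -0.6555 on HDAC4 array 3 and -0.6519 on Neo array 2. The change was small, -0.22 ± 0.12 (SE), with an exact two-sided permutation p of 0.0286 (no smaller p is possible with 4 arrays a group), and a limma adjusted p of 0.8165 over all tested probes.

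Hoxa4, active in neck segments, had 0.12, 0.50 and 0.98 on HDAC4 arrays 2 to 4, no value on HDAC4 array 1, and 0.58, 0.80, 0.78 and 0.35 in Neo. The HDAC4 range enclosed the Neo range, and the change was -0.094 (limma adjusted p = 0.966). Hoxa3, required for the thymus and parathyroid, gave -1.27, -0.23, -1.26 and -1.28 in HDAC4 and -1.19, -0.98, -0.85 and -1.30 in Neo. HDAC4 replicate 2 was high; with it the change was 0.072 and without it -0.19, and neither passed (limma adjusted p = 0.975 and 0.996).

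Of the Hoxa probes outside the test, Hoxa2 (second pharyngeal arch) had no HDAC4 value and 0.17, -1.06 and -0.71 on Neo arrays 2 to 4. Hoxa6 had 0.30 on HDAC4 array 3 and -0.43, -1.28 and -0.66 on Neo arrays 2 to 4, and Hoxa13, a gene of hands and feet, had a single value of 1.42, on Neo array 3, which lies at the inferred floor of the reference.

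In Hoxb, 6 of the 7 tested probes had a change below 0, where 50.6% of all tested probes did. In Hoxa it was 2 of 7, in Hoxc 1 of 5 and in Hoxd 2 of 2. The Hoxb median was -0.155, and the clusters were not compared by a test. Hoxb9, which with its paralogs sets the form of the ribs, was the Hox probe with the smallest p. It stood at -2.49, -2.37, -2.14 and -2.66 on HDAC4 arrays 1 to 4 and at -1.26, -1.76, -1.92 and -1.96 on Neo arrays 1 to 4. The groups did not overlap, so the HDAC4 array was lower under any pairing. The differences in the 4 same-numbered pairs were -1.23, -0.61, -0.22 and -0.70. The means were -2.41 ± 0.22 in HDAC4 and -1.72 ± 0.32 in Neo (SD, n = 4 each).

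The change of Hoxb9 was -0.69 ± 0.19 (SE; 95% interval -1.11 to -0.27), a level 1.61-fold lower in HDAC4. The unadjusted limma p was 0.00473, the adjusted p was 0.353, and the exact permutation p was 0.0286. It therefore failed the correction over all tested probes. Without both arrays numbered 1 the change was -0.51, with an adjusted p of 0.143.

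Hoxb8, known from its part in myeloid progenitors and microglia, was the least stable of the tested Hox probes across arrays. It had 1.05, -1.18, -1.04 and -1.18 on HDAC4 arrays 1 to 4 and 1.23, -0.67, 0.59 and 0.97 on Neo arrays 1 to 4. HDAC4 replicate 1 lay among the Neo values, and Neo replicate 2 lay closer to HDAC4 arrays 2 to 4, so the groups overlapped.

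The change of Hoxb8 was -1.12 ± 0.56 (SE; 95% interval -2.37 to 0.14), with a limma adjusted p of 0.770 and an exact permutation p of 0.143. The HDAC4 array was lower in all 4 same-numbered pairs, with differences of -0.18, -0.51, -1.63 and -2.15. Whether the numbers 2 to 4 mark pairs is not settled. Without both arrays numbered 1 the change was -1.43 ± 0.38 (SE) with an unadjusted limma p of 0.00682 and an adjusted p of 0.117. Small p were more frequent in that fit: 2803 probes had an unadjusted limma p under 0.05, against 1177 with all arrays.

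Hoxb4, used to expand blood stem cells, gave -0.38, -0.62, 0.48 and 0.12 in HDAC4 and 0.88, 0.0014, 0.011 and 0.67 in Neo at the probe M300011716. The groups overlapped, with a change of -0.49 ± 0.29 (SE; limma adjusted p = 0.825). Its other probe, M300011717, had -2.46 on HDAC4 array 4 and -3.11 on Neo array 3 and nothing else.

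Hoxb7, which acts in the trunk, had -2.29, -2.41 and -2.69 on HDAC4 arrays 2 to 4 and -2.43, -2.18, -2.21 and -2.68 in Neo. The groups overlapped, with a change of -0.084 (95% interval -0.49 to 0.32). Hoxb6 had -1.15, -1.92 and -1.56 on HDAC4 arrays 1, 3 and 4 and -1.60, -1.87, -1.47 and -2.60 in Neo, and was the exception among the tested Hoxb probes with a change above 0 (0.34 ± 0.30, SE; limma adjusted p = 0.8955).

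Hoxb3 and Hoxb2 pattern the hindbrain. Hoxb3 gave -0.39, -0.57, -0.70 and -0.99 in HDAC4 and -0.66, -1.0029, -0.033 and -0.33 in Neo. Hoxb2 gave -1.33, -1.91, -1.87 and -2.55 in HDAC4 and -1.84, -1.89, -1.25 and -2.42 in Neo. In both genes the groups overlapped, with changes of -0.155 and -0.065 and limma adjusted p of 0.944 and 0.980. Hoxb5 had values on HDAC4 arrays 3 and 4 (-1.51 and -0.98) and on Neo array 3 (-2.26).

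In Hoxc the probes of groups 13 and 10 were above the reference on every array. Hoxc10, a gene of hindlimb and lumbar levels, had 1.08, 1.58, 1.47 and 1.55 in HDAC4 and 1.26, 1.52, 1.4019 and 1.25 in Neo. The means were 1.42 ± 0.23 in HDAC4 and 1.36 ± 0.13 in Neo (SD, n = 4 each), and the change of 0.061 had an interval from -0.28 to 0.40.

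Hoxc13, required for hair and nails, had 2.02, 0.97, 0.80 and 1.04 in HDAC4 and 1.99, 0.91, 0.79 and 0.87 in Neo. The arrays numbered 1 lay near 2 in both groups and the other 6 between 0.79 and 1.04. Within same-numbered pairs the HDAC4 array was higher by 0.0275, 0.0556, 0.0135 and 0.18. The change was 0.068 ± 0.332 (SE), and with replicate 1 as a batch it was 0.068 ± 0.0999 (SE; limma adjusted p = 0.805).

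In that fit the arrays numbered 1 differed from the others in 2 of the 21 Hox probes at a limma adjusted p under 0.05, where 21.4% of all tested probes did. They were Hoxc13, by 1.11 (adjusted p = 0.00173), and Hoxb8, by 1.56 (adjusted p = 0.0320), both higher on the arrays numbered 1. The labels do not say what these arrays share beyond their number.

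Hoxc8, active in thoracic and brachial segments, had -1.58, -1.58 and -1.14 on HDAC4 arrays 1, 3 and 4 and -1.18, -1.12, -1.21 and -1.36 in Neo. Hoxc6, of the same region, had 0.067, -0.78, -0.74 and -0.72 in HDAC4 and -0.70, -0.53, -0.72 and -0.46 in Neo. HDAC4 replicate 1 of Hoxc6 was high; its change was 0.059 with all arrays and -0.18 without both arrays numbered 1 (limma adjusted p = 0.975 and 0.416). Hoxc5 had -0.57, -0.56 and -0.82 on HDAC4 arrays 1, 3 and 4 and -0.62, -0.86, -1.12 and -0.78 in Neo, with overlapping groups. The changes of Hoxc8 and Hoxc5 were -0.22 and 0.19, with limma adjusted p of 0.880 and 0.8955. Hoxc4 had no HDAC4 value and 0.12, -1.54 and -1.86 on Neo arrays 1 to 3.

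Hoxd was largely without values. Hoxd9, a paralog of Hoxa9 and Hoxb9, had -1.95, -1.91 and -2.65 on HDAC4 arrays 1, 2 and 4 and -1.99, -2.48, -1.77 and -1.93 in Neo. Hoxd1, which acts in pain-sensing neurons, had 0.33, -0.10, 0.027 and 0.057 in HDAC4 and 0.25, 0.15, -0.12 and 0.62 in Neo. In both the groups overlapped, with changes of -0.12 and -0.14 and limma adjusted p of 0.961 and 0.937.

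The remaining Hoxd probes had few values. Hoxd8 had -3.90 on HDAC4 array 1 and -3.46, -4.07 and -3.91 on Neo arrays 1, 3 and 4, all far below the reference. Hoxd11, which acts with Hoxa11 in the forearm, had a single value of -5.41, on HDAC4 array 1, and Hoxd4 one of -2.68, on Neo array 3. Hoxd12 had -0.014 and 0.22 on Neo arrays 1 and 3.

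**Figure D3:**
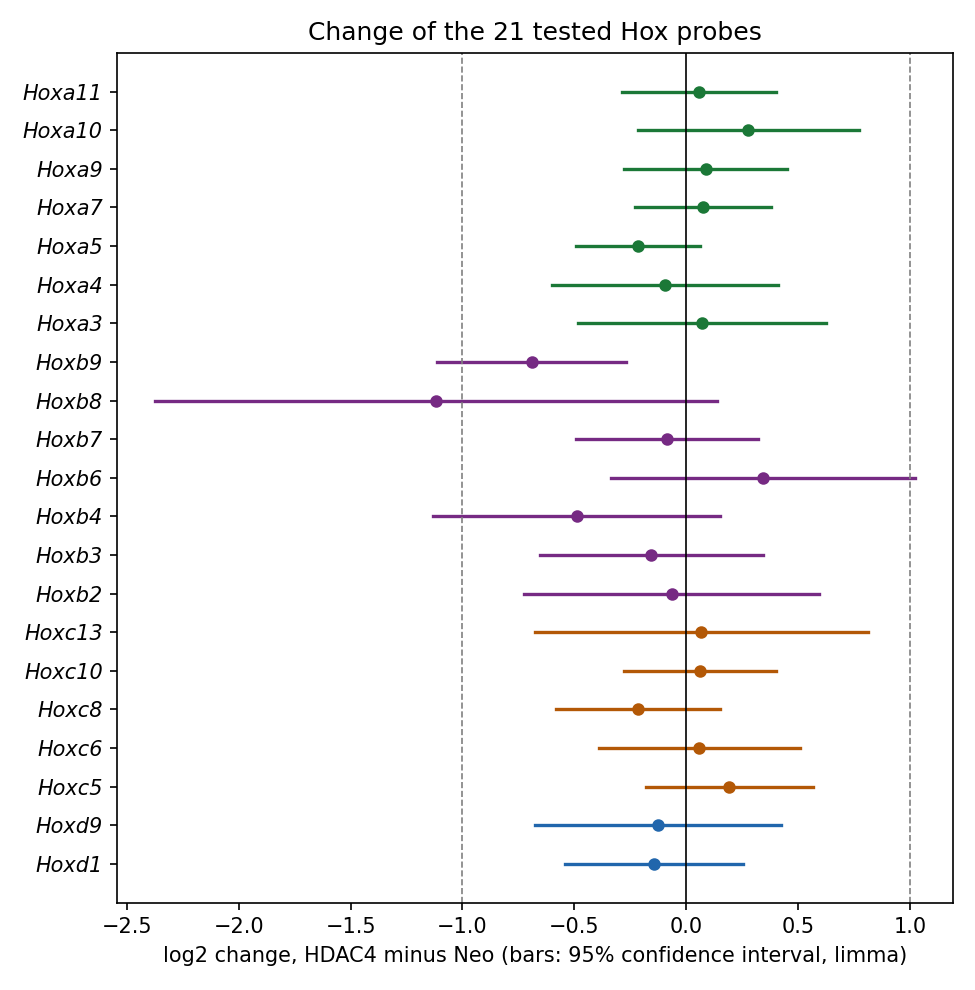
Log2 change, HDAC4 minus Neo, of the 21 tested Hox probes, with 95% confidence intervals from limma and colours for the 4 clusters; dashed lines mark changes of -1 and 1. The interval of Hoxb9 (-1.11 to -0.27) does not reach 0, that of Hoxb8 is the widest, and no probe passed the adjusted threshold.

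Fewer Hox probes carried a value on HDAC4 arrays. The numbers were 21, 18, 22 and 23 of 38 on HDAC4 arrays 1 to 4 and 24, 24, 30 and 24 on Neo arrays 1 to 4, without overlap. This is 55.3% ± 5.7 in HDAC4 and 67.1% ± 7.9 in Neo (SD, n = 4 each). The same held over all probes, with 56.2% ± 2.2 in HDAC4 and 65.0% ± 4.2 in Neo (SD, n = 4 each). Of the 16 Hox probes with a value on 1 to 7 arrays, 13 had more Neo than HDAC4 values, 2 had more HDAC4 values (Hoxb5 and Hoxd11) and 1 had as many of each, while 79.1% of all such probes had more Neo values and 9.43% more HDAC4 values. The Hox share was thus near the share over all probes. Hoxa2 and Hoxc4, with 3 Neo values and no HDAC4 value each, had a Fisher's exact p of 0.143, and no Hox probe had 4 values in Neo and none in HDAC4.

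**Figure D4:**
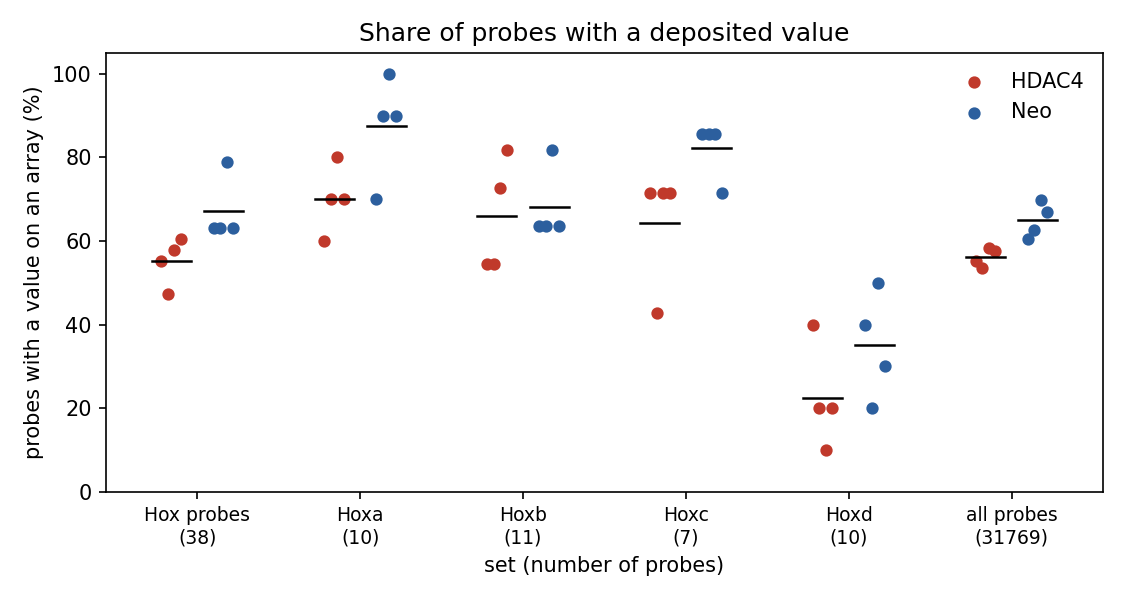
Share of probes with a deposited value on each array, in percent, for the Hox probes together, for each cluster and for all probes, with HDAC4 arrays in red on the left, Neo arrays in blue on the right and black lines at the group means. HDAC4 arrays averaged 55.3% for Hox probes against 67.1% on Neo arrays, and Hoxd lies lowest of the clusters in both groups.

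Genes that act with the Hox proteins or on their clusters had no probe past an adjusted p of 0.05 in limma either. Hox proteins bind DNA together with PBX, MEIS and PKNOX partners. Of 7 tested probes for these cofactors, 6 had a change above 0 and 1 below, with a median of 0.25. The exception was Pknox2, with 0.57, 0.24 and 1.56 on HDAC4 arrays 2 to 4 and 1.25, 2.32, 2.29 and 1.34 in Neo. These groups overlapped, and the change of -1.01 ± 0.39 (SE) had an unadjusted limma p of 0.0297 and an adjusted p of 0.640. The probe with the next smallest p was that of Pknox1, with a change of 0.34 (limma adjusted p = 0.862).

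Among Polycomb genes, 10 of 29 tested probes had a change above 0 and 19 below, with a median of -0.040. Rybp, a subunit of a ubiquitin ligase complex of this group, had means of -0.45 ± 0.18 in HDAC4 and -0.84 ± 0.22 in Neo (SD, n = 4 each), an unadjusted limma p of 0.0345 and an adjusted p of 0.668. Suz12, a core subunit of the methyltransferase complex, followed with a change of -0.21 (limma adjusted p = 0.830). In the trithorax group 6 of 11 tested probes had a change above 0, with a median of 0.0047. Both probes of Men1, which encodes menin, a partner of the MLL methyltransferases, had changes above 0, 0.45 and 0.51, with limma adjusted p of 0.705 and 0.775. The first of these had an unadjusted p of 0.0439.

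Of the factors that act upstream of the clusters in the embryo (CDX proteins, retinoic acid receptors and enzymes, Gdf11), 7 probes were tested. They belonged to 5 genes, Gdf11, Rxra, Rxrb, Rarg and Cyp26b1, and no CDX gene was among them. For 6 probes the change was above 0, those of Rarg (0.157, 0.103 and 0.047) included, and the median over the 7 was 0.10. The Rarg changes rest on the arrays numbered 1. At the probe with 0.157, Neo array 1 had -2.16 and the other Neo arrays -1.43 to -1.01. At that with 0.103, Neo array 1 had -2.71 and the other Neo arrays -2.16 to -1.24. At that with 0.047, HDAC4 array 1 had -0.51 and the other HDAC4 arrays -1.415 to -1.38. Gdf11, a secreted factor that sets the trunk to tail transition, had a change of -0.35 (limma adjusted p = 0.853), and the retinoid receptor gene Rxrb one of 0.21 (limma adjusted p = 0.889). Genes next to the clusters split evenly, with 4 of 8 probes above 0 and a median of -0.0023. The smallest p belonged to Snx10 (-0.38, limma adjusted p = 0.758) and 1 of the Cbx1 probes (-0.30, limma adjusted p = 0.872). The other tested Cbx1 probes had changes of -0.12 and -0.051. Of 18 tested probes for homeobox genes outside the clusters, 5 had a change above 0 and 13 below, with a median of -0.099. A Cux1 probe had a change of 0.28 and Six4, which acts in muscle precursors, one of 0.69 (limma adjusted p of 0.801 and 0.808). The other Cux1 probe had a change of 0.064.

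No marker probe of other cell types or of cell division passed an adjusted p of 0.05 in limma. The 10 muscle probes had a median change of -0.18, with 3 above 0 and 7 below. Those with the smallest p were Mylpf (-0.24, limma adjusted p = 0.833) and 1 of the Tnnt3 probes (-0.43, limma adjusted p = 0.870). That Tnnt3 probe had 7.30 on HDAC4 array 1 and 8.48 to 8.79 on the other HDAC4 arrays. The other tested Tnnt3 probe had a change of 0.082. Of the fat markers 4 probes were tested, all of Cd36 and Lpl, with 1 change above 0. Adipoq, Fabp4 and Plin1 had no tested probe. The smallest p belonged to a pair of probes of the fatty acid transporter Cd36 (-0.50 and -0.33, limma adjusted p of 0.715 and 0.888). The 5 probes of cycling cells all had changes above 0, with a median of 0.22, but that of Mki67 was only 0.026. Their median level lay between -3.83 and -2.48 on HDAC4 arrays and between -4.01 and -3.06 on Neo arrays. The highest level in each group was that of the array numbered 1. Cdk1 had -2.48 on HDAC4 array 1 and -3.90 to -3.61 on HDAC4 arrays 2 to 4. Mcm2, a replication helicase subunit, had a change of 0.32 with an unadjusted limma p of 0.0375 and an adjusted p of 0.686, and Cdk1 one of 0.38 (limma adjusted p = 0.889). Of the cartilage and bone markers, Sox9 had a change of 0.59 and Acan one of -0.53, with unadjusted limma p of 0.0135 and 0.0147 and adjusted p of 0.521 and 0.534. The part of these markers in the Hox values was not tested.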

How the data were processed

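RNA of 8 samples was measured on 2-colour arrays. The values that the authors deposited are log2 ratios, likely of cells to reference; the labels do not state how background, dyes and missing spots were treated. Of 31769 probes, 18976 name 1 gene, 404 several and 12389 none in the platform annotation; symbols were read against RefSeq, where 41 were not found. For this work the median of every array (0.00576 to 0.0286 as deposited) was subtracted. No spot intensities were used; the number of arrays and the spread between them limit the precision. Of 153980 values, 15458 (10.0%) have a linear ratio that, times 10, is whole within 0.001 and at least 10, read here as a floor under the reference.

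The 2 groups of 4 were taken from the sample labels. Probes with at least 3 values per group were tested with limma 3.58.1 in R 4.3.3 (lmFit, eBayes), each probe a feature, with Benjamini-Hochberg adjustment over 16748 probes at 0.05. Exact permutation tests over arrays were two-sided. Deviations from the group means correlated between same-numbered arrays at 0.53, 0.31, 0.21 and 0.11. Among arrays 2 to 4, differently numbered ones correlated at 0.066 to 0.27. HDAC4 arrays 3 and 4 deviated more closely with Neo array 2 (0.22 and 0.27). Only the arrays numbered 1 thus stood out as a pair. The labels state no pairs, and the data do not settle them for arrays 2 to 4. A fit with the replicate number as a block was run as an alternative. Each tested Hox probe is named with its values, and, of the other lists, the 2 probes with the smallest p. The members and gene lists were chosen with earlier results of these data known. Probes naming several genes were left out.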

Additional observations from a re-analysis of the deposited data

Results flagged for a closer look

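In 36 groups of 4 arrays, the distance of the highest or lowest array from its nearest neighbour was compared with the range of the group. It passed Dixon's 95% critical value in 4 groups, where the nominal rate is about 1 in 20. The share over all probes was not computed, so this count does not set the Hox probes apart.

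For Hoxa3, HDAC4 replicate 2 had -0.23 and the other HDAC4 arrays -1.28 to -1.26. For Hoxb8, HDAC4 replicate 1 had 1.05 and the other HDAC4 arrays -1.18 to -1.04. For Hoxc6, HDAC4 replicate 1 had 0.067 and the other HDAC4 arrays -0.78 to -0.72. For Hoxc13, Neo replicate 1 had 1.99 and the other Neo arrays 0.79 to 0.91. In 3 of the 4 the array is numbered 1, as are the arrays that stand apart across all probes.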

How the results depend on the processing

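In all 18 alternatives, 0 Hox probes passed an adjusted p of 0.05 in limma, with 1 or 2 at an unadjusted p under 0.05. The median Hox change was -0.065 and -0.14 to 0.12 with 1 array left out. The count over all probes, 21, was 1 without values at the reference floor, 3 with the floor offset removed, 9 with the replicate block, 108 with replicate 1 as a batch and 348 without both arrays numbered 1. With 1 array left out it ran from 0 to 88: 88, 3, 9 and 2 without HDAC4 replicates 1 to 4, and 74, 0, 0 and 0 without Neo replicates 1 to 4, where the last 3 had 915, 957 and 936 probes at an unadjusted limma p under 0.05. The cause was not tested. The replicate block changed no Hox call.

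Of 349 recomputed changes of single Hox probes, 335 kept their direction and 14 turned, none past the threshold. Many alternatives leave the change of a probe as it was, so this count overstates the stability. By probe, 14 of the 21 turned in no alternative. Without both arrays numbered 1, Hoxa9 was -0.0008 and Hoxc6 -0.18. With 1 array left out, Hoxa11 ran from -0.0195 to 0.13, Hoxa3 from -0.19 to 0.16, Hoxb2 from -0.26 to 0.15, Hoxb3 from -0.32 to 0.0027, Hoxc13 from -0.20 to 0.35 and Hoxc6 from -0.14 to 0.14. Hoxb9 stayed between -0.78 and -0.51 (adjusted p 0.122 to 0.776) and Hoxb8 between -1.67 and -0.89 (adjusted p 0.117 to 0.9998, limma). Probes without 3 remaining values in a group gave no value there.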

Other observations

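A probe that names both Hoxc9 and Hoxc8 had 0.058, 0.34, 0.33 and 0.43 on HDAC4 arrays 1 to 4 and -0.25, 0.16, 0.48 and 0.59 on Neo arrays 1 to 4. The means were 0.29 ± 0.16 in HDAC4 and 0.24 ± 0.38 in Neo (SD, n = 4 each), and the groups overlapped. The antisense transcript Hoxd3os1 had 1 value, 0.65, on Neo array 4.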
